A study of Mus musculus with 14 samples.

Results

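The 8 dishes of experiment B in a study of SCp2 mouse mammary epithelial cells were divided by a measured value, the relative expression of Ifit1. Arrays with Ifit1 above 0 are called Ifit1-high and those below 0 Ifit1-low, which gave 4 against 4 of the 14 arrays of the series. The other 6 arrays form experiment A and were not divided, though the value 0 is the median over all 14 arrays. SCp2 is an established epithelial line of the mammary gland. Dishes were 35 mm wide and received 50K, 100K or 250K cells in A (K as the labels write it), while B had these densities and 25K. At each density 1 dish was labelled control and 1 was treated with MMP3 for 3 days, and all were kept in DMEM with 2% FCS. Total RNA was hybridised to Affymetrix mouse expression arrays.

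MMP3, or stromelysin-1, is a secreted protease of the extracellular matrix, and in mammary epithelial cells it is known for cleaving E-cadherin and for driving an epithelial to mesenchymal transition. Ifit1 is an antiviral protein that binds foreign RNA. Its gene is among the most strongly induced by type I interferon, through STAT and IRF factors that bind a short promoter element, and it is commonly read as a marker of an interferon response. The results below are about genes outside that response, which here means outside a list of 218 interferon-induced genes.

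Values are log expression, taken as base 2 because RMA gives log2, relative to each probe set's median over the 14 arrays, so 0 is the middle of the series and levels of different genes cannot be compared. Values on the Ifit1-high arrays are given in the order control 50K, control 250K, MMP3 50K and MMP3 250K. Those on the Ifit1-low arrays are in the order control 25K, control 100K, MMP3 25K and MMP3 100K, and those of A run 50K, 100K and 250K. Ifit1 read 3.71, 4.26, 4.53 and 5.15 on the high arrays and -2.93, -2.93, -2.83 and -2.97 on the low ones. The array closest to the threshold from above was control 50K at 3.71, and the closest from below was MMP3 25K at -2.83. These values chose the groups and are a description, with no test. Of 130 tested genes on the interferon list, 81 had all high arrays above all low arrays and 5 had them below.

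Both arrays of a density fell on the same side. The high side held the control and the MMP3 dish at 50K and 250K, and the low side held both dishes at 25K and 100K. Ifit1 and plated density therefore cannot be told apart within B, and the sides are not ordered by density. In A, Ifit1 read -2.91, -2.98 and -2.94 in control dishes and 2.83, 3.96 and 4.21 in MMP3 dishes. The dishes labelled control at 50K and 250K in B thus carried Ifit1 at the level of MMP3 dishes in A, and the dishes labelled MMP3 at 25K and 100K carried it at the level of controls. In A the MMP3 label and Ifit1 cannot be told apart. Whether the labels of dishes in B match the treatment they received was not tested, and every MMP3 minus control value in B is by label. Each dish is 1 array, and no label says whether dishes came from separate cultures, so p-values measure only the spread between these dishes.

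Promoter sequences are shown for Ifit1 and for the gene outside the interferon list whose values followed it most closely. Atg9b, which encodes an autophagy membrane protein, had a Pearson r of 0.998 with Ifit1 over the 8 arrays of B. The 250 bases before the start of each gene are from RefSeq (GRCm38.p6), 5′ to 3′ on the strand of the gene. Capitals mark the interferon-stimulated response element, searched on both strands as GAAA, 2 bases of any kind, and GAAA. The windows are chr19:34640639-34640888 (plus strand) for Ifit1 and chr5:24392144-24392393 (minus strand) for Atg9b.
Ifit1: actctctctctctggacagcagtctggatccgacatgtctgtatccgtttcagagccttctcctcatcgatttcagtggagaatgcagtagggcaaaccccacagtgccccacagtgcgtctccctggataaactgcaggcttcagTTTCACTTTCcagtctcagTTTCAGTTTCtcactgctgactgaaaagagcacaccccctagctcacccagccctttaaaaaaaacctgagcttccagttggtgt
Atg9b: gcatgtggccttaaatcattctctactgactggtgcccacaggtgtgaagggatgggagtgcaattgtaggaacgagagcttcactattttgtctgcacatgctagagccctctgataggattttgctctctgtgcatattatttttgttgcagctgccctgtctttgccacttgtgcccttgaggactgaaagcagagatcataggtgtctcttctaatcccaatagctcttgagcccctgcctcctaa
The Ifit1 window held 2 matches, which begin 104 and 85 bases before the start, and the Atg9b window held 0. In windows that also take in the 50 bases after the start, 29 of 67 interferon-list genes with high arrays above low arrays had a match (43.3%). Outside the list, 14 of 466 genes higher by at least 1 on the Ifit1-high side had one (3.0%), beside 242 of 9457 tested genes outside the list (2.56%) and 943 of all 27025 promoters (3.49%). A match describes the letters only.

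The array MMP3 100K of B stood apart from the other 13. On it 1750 genes lay at least 1 log2 unit outside the range of the other arrays, 709 above and 1041 below, while MMP3 250K of B came next with 102. The spread of its values over genes outside the interferon list (SD) was 1.286, against 0.3 to 0.598 on the others. For correlations between arrays across genes, each gene was first centred again on its mean over the arrays of B. MMP3 100K then correlated at -0.423, -0.279 and 0.259 with the other 3 low arrays. MMP3 250K correlated at -0.062, 0.014 and 0.337 with the other 3 high arrays, whereas control 50K and control 250K correlated at 0.864. The mean includes MMP3 100K with its wide spread, so this centring can by itself make correlations with that array negative. The negative values do not show that MMP3 100K ran opposite to its side. In relative values, the actin probe sets of MMP3 100K differed by 0.654 between the 3′ and 5′ ends, the highest value in B. The other low arrays ran from -0.035 to 0.176 and the high arrays from -0.339 to 0.192. Since each probe set is centred over the series, this measure compares arrays and is not the 3′ to 5′ ratio of an array. The same measure for Gapdh ran from -0.058 to 0.144 on the high arrays and from -0.024 to 0.086 on the low arrays. Their part in the results was not tested. Below, a second value in brackets after a difference or median in B is the value without MMP3 100K.

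Outside the interferon list 11682 genes were tested. The high arrays lay wholly above the low arrays for 1497 of them (12.8%) and wholly below for 2083 (17.8%). Without MMP3 100K these counts were 1876 (16.1%) and 2593 (22.2%). Leaving out any array can only keep or raise such counts, here and in the lists below, so a rise alone says nothing about MMP3 100K. These counts and those of the lists below have no size threshold, so shifts of any size count. Rb1, for one, lay wholly below without MMP3 100K with a difference of only -0.02. Array medians over probe sets ran from -0.024 to -0.002 on the high arrays and from 0.006 to 0.03 on the low arrays. The part of this offset in the counts was not tested. With a mean difference of at least 1 as well, 843 genes (7.22%) remained, 576 higher and 267 lower on the Ifit1-high side, and 676 without MMP3 100K (469 and 207). Of these, 532 met both conditions with and without that array. No p-value is given because the sides were chosen on these arrays, and in RNA from whole dishes fewer cells of a type and less RNA per cell cannot be told apart.

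The genes with the largest differences outside the interferon list have varied roles. St3gal5, which makes the ganglioside GM3, read 2.53, 2.21, 2.32 and 1.45 on the high arrays and -2.33, -1.83, -2.07 and -3.39 on the low arrays. The sides lay far apart, with a difference of 4.53 on the log2 scale, or 23.1-fold (4.20 without MMP3 100K). In A it was 4.26 higher with MMP3 (SE 0.11, limma adjusted p = 0.0122). Slc4a4, a sodium bicarbonate cotransporter, read 2.15, 2.12, 2.47 and 1.82 against -1.86, -2.14, -1.84 and -2.13. Its difference was 4.14 (4.09 without MMP3 100K), with the control and MMP3 labels mixed on each side. Another of its probe sets differed by only 0.72. Adgrg1, an adhesion G protein-coupled receptor, was 4.51 higher (4.78 without that array), and Lipk, a lipase known from keratinocytes, 4.13 higher (4.01). Crct1, a gene of cornified epithelium, was 4.89 higher (4.82), but its high arrays ranged from 1.57 in MMP3 250K to 5.13 in control 50K.

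In the other direction Rtl3, a gene derived from a retrotransposon, read -3.78, -2.77, -3.07 and -0.66 on the high arrays and 2.90, 3.58, 3.05 and 0.66 on the low arrays. The MMP3 250K and MMP3 100K dishes lay closest to the middle, and the difference of -5.12 became -5.75 without MMP3 100K. Gsta3, a glutathione transferase, read -2.74, -2.50, -2.17 and -1.03 against 1.34, 1.82, 1.94 and 1.43. It was lower by 13.4-fold, and its difference of -3.74 (-3.81) stood beside -4.13 in A (SE 0.18, adjusted p = 0.0122). Gsta2, a close relative, differed by -2.80 (-2.85) in B and by -1.46 in A, where it did not pass the test (SE 0.32, adjusted p = 0.0572). Probe sets of such near-identical genes may read one another's RNA. Bcl11a, a transcription factor of mammary stem and progenitor cells, read -2.39, -1.26, -0.89 and -0.36 against 0.57, 1.64, 2.55 and 2.34. Its sides did not overlap and differed by -3.00 (-2.81). Maf, a basic leucine zipper factor, differed by -3.17 (-2.97), and Krtdap, a gene of keratinocyte differentiation, by -3.39 (-4.15), and Krtdap was at 0.70 in MMP3 100K against 3.23 to 4.15 on the other low arrays.

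**Figure D1:**
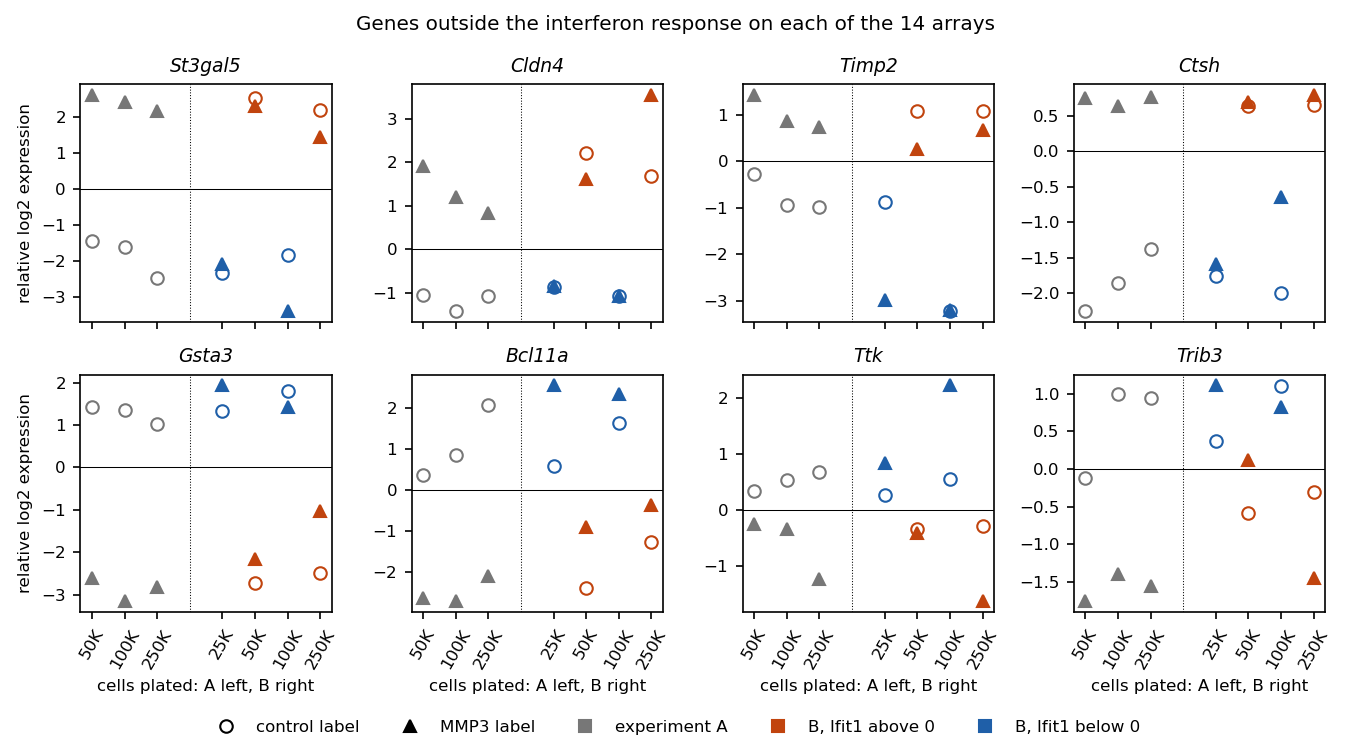
Relative log2 expression of 8 genes outside the interferon list (vertical axis) on each of the 14 arrays by cells plated (horizontal axis, experiment A left of the dotted line and B right). Circles are control dishes, triangles MMP3 dishes, grey marks A, and orange and blue mark Ifit1 above and below 0 in B. Gsta3 lies below 0 on all 4 Ifit1-high arrays and above 0 on all 4 Ifit1-low arrays whichever the label, and Ttk reaches 2.22 in MMP3 100K.

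Experiment A, which shares no array with B, was then set beside the division. In A the limma fit called 2960 of 11812 genes at an adjusted p under 0.05 (25.1%), 1716 higher with MMP3 (14.5%) and 1244 lower (10.5%). Of the 843 genes that differed by at least 1 in B, 671 were called in A in the same direction (79.6%), 495 higher and 176 lower. The opposite direction was called for 0 of them, and all 843 had the same sign in A. Without MMP3 100K, 578 of 676 genes were called in the same direction, 0 in the opposite, and 675 had the same sign. Across the 11682 genes the difference between sides in B correlated with MMP3 minus control in A at Pearson r = 0.855 (Spearman rho = 0.807), and at 0.919 (0.88) without MMP3 100K. Genes are not independent replicates, so no p is given. Matched pairs of 1 density gave 1908 calls in A. With any 1 array of A left out the same model kept 1 residual degree of freedom and called 0 genes. A model without the product of agent and density then called 447 genes without control 50K, 534 without control 100K, 969 without MMP3 50K, 1655 without MMP3 100K and 1350 without MMP3 250K of A, beside 2663 with all 6 arrays.

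**Figure D2:**
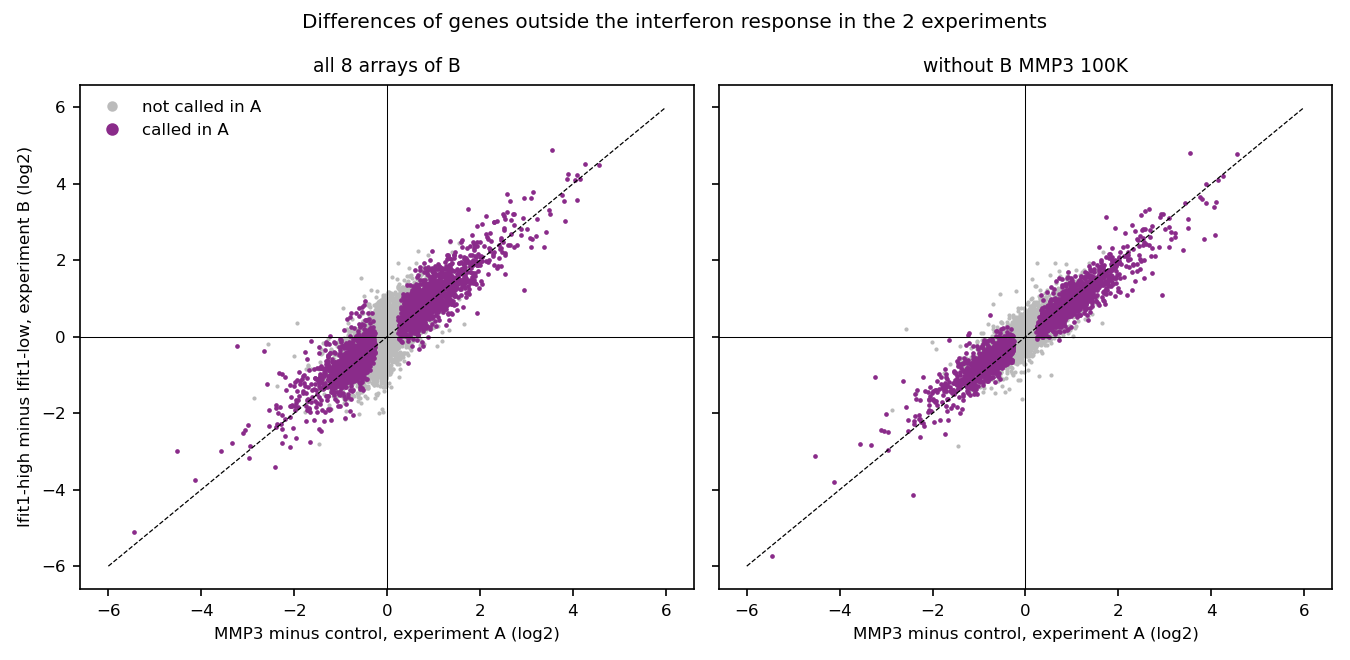
Each point is a gene outside the interferon list, by its MMP3 minus control difference in A (horizontal, log2) and its Ifit1-high minus Ifit1-low difference in B (vertical, log2), with all 8 arrays of B (left) and without MMP3 100K (right). Purple points were called in A and the dashed line marks equal differences. The cloud lies along the line, with r = 0.855 on the left and 0.919 on the right.

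Read from A, 1621 of 1635 genes higher with MMP3 outside the interferon list had the same sign in B, and 1182 of 1241 lower genes did. The sides did not overlap in the same direction for 1023 and 537 of them, and in the opposite direction for 0. For genes called in A, the sides accounted for a median of 53.9% of the variance over the arrays of B, against 19.2% for genes not called. Single arrays correlated with the A difference at 0.688, 0.704, 0.713 and 0.44 on the high side and at -0.375, -0.625, -0.708 and -0.387 on the low side. The signs followed the Ifit1 side and not the label, and the weakest value on the high side was that of MMP3 250K.

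The labels within B were tested as MMP3 minus control in pairs of 1 density, a contrast that leaves the sides out because each pair lies on 1 side. The limma fit called 0 of 11812 genes (0.0%). The lowest adjusted p was 0.152, and 2440 genes had an unadjusted p under 0.05. In made-up arrays with known changes this fit recovered 32% of changes of 1 log2 unit and 68% of changes of 2. The 0 calls therefore do not show that the labels made no difference. Several genes with a large difference between sides had a label difference in B of the opposite sign to that in A. Ccn2, a matricellular protein and YAP target, read 3.35, 2.73, 1.89 and -0.79 on the high arrays and 0.14, -0.69, -2.02 and -7.14 on the low arrays. The sides overlapped through MMP3 250K, and at each density the MMP3 dish was below its control. MMP3 minus control of Ccn2 was -3.40 in B and 4.09 in A (SE 0.23, adjusted p = 0.0125). Thbs1, the matrix protein thrombospondin-1, had -2.32 in B and 3.13 in A, while its sides differed by 3.80 (2.74 without MMP3 100K). Of 135 genes named by the rules used here, 1 of them without a test, 30 had one sign in all 3 pairs of A and the other in all 4 pairs of B. Others, among them Crb3, Ctsh and Mcm5, had one sign in every pair of both. Most were named for their differences between the sides, and no share over all tested genes is given. The difference between A and B was not tested.

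Tight junction and polarity genes, which seal the epithelial sheet and set its apical side, were higher on the Ifit1-high arrays. Of 35 tested members 17 lay wholly above the low arrays and 2 wholly below, with a median difference of 0.92 (0.84 without MMP3 100K, where the counts were 20 and 2). Over all 11682 genes 12.8% lay wholly above and 17.8% wholly below (16.1% and 22.2% without MMP3 100K). These shares stand beside the counts of this list and of those below. In A 14.5% of 11812 tested genes were higher with MMP3 and 10.5% lower. The median difference over the 11682 genes was 0.0 (-0.02 without MMP3 100K and in A). In A 20 members rose, 0 fell, and the median was 0.80. Cldn4, a claudin of the tight junction strand, read 2.21, 1.68, 1.62 and 3.54 on the high arrays against -0.86, -1.06, -0.84 and -1.07. All 4 low arrays lay together, and MMP3 250K was the highest array. The difference was 3.22 (3.18) in B and 2.49 in A (SE 0.16, adjusted p = 0.0133). Cgnl1, the junction adaptor paracingulin, differed by 3.56 (3.61), but by only 0.02 in another of its probe sets. Crb3, an apical polarity protein, differed by 2.69 (2.71), and Ocln, or occludin, by 2.59 (2.38). Cdh1, or E-cadherin, which MMP3 is known to cleave as a protein, read 0.43, 0.41, 0.35 and 0.27 against -0.27, -0.40, -0.64 and -0.91. Its RNA was 0.92 higher on the high side (0.80 without MMP3 100K) and rose by 0.89 in A (SE 0.06, adjusted p = 0.0136). The epithelial surface gene Epcam differed by 1.09 (1.11) and spanned only 0.43 to 0.66 on the high side.

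Mesenchymal genes had no shared direction. Of 17 tested genes on the list of transition regulators and mesenchymal genes, 3 lay wholly above and 2 wholly below, and the median of 0.54 was 0.04 without MMP3 100K and 0.35 without control 50K. Those above were Thbs1, with 3.80 (2.74), Tagln, with 1.075 (1.05), and Postn, with 0.73 (0.68), and all 3 rose in A. The gap between sides was narrow for Tagln, from -0.003 in control 100K to 0.05 in MMP3 250K. For Postn it ran from -0.22 in control 25K to -0.16 in MMP3 50K. In A 6 members of the list rose and 3 fell (median 0.24). Vim, or vimentin, read 1.11, 0.89, 0.16 and -0.50 against 0.05, -0.56, -1.59 and -2.21, so the sides overlapped, with a difference of 1.49 (1.11). In A Vim rose by 1.14 (SE 0.21, adjusted p = 0.0406). Snai2, a transcriptional repressor of epithelial genes, was lower on the high side, at -1.12, -0.61, -0.46 and -0.41 against 0.65, 0.91, 0.80 and 1.05. Its difference was -1.50 (-1.44) in B and -1.51 in A (SE 0.063, adjusted p = 0.0122). Rac1, a GTPase of cell shape through which MMP3 is known to act, differed by 0.40 (0.43) without overlap, although another of its probe sets had the opposite sign. The related repressor Snai1 did not pass the filter on spread and was not tested. Basal keratins and Trp63, the transcription factor of basal cells, which differed by -0.97 (-1.18), overlapped. Krt14 read 0.53, 0.39, 0.01 and -3.93 on the low arrays, and its difference of 0.81 became -0.25 without MMP3 100K. Of 10 tested keratins 0 lay wholly on either side (median -0.21, and -0.27 without MMP3 100K). The median turned positive without control 25K (0.07), control 50K (0.17) or control 100K (0.04). Krt5 differed by -0.68 with overlap, and by -0.90 without MMP3 100K, when the sides no longer overlapped. Of desmosome and hemidesmosome genes 3 of 18 lay above and 4 below. Among them Pkp2, or plakophilin-2, was 3.64 (3.20) higher and Dsg1a, a desmosomal cadherin, differed by -1.81 (-1.66).

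Matrix proteases and their inhibitors included 8 of 25 members wholly above and 0 wholly below (median 0.46, and 0.47 without MMP3 100K). In A 12 rose and 2 fell (median 0.54). The median in B was 0.84 without control 25K, 0.70 without control 100K and 0.74 without MMP3 250K. Timp2, a secreted inhibitor of metalloproteinases, read 1.09, 1.07, 0.27 and 0.67 against -0.87, -3.22, -2.99 and -3.19. Control 25K stood above the other 3 low arrays, and the difference of 3.35 (3.14) in B stood beside 1.74 in A (SE 0.17, adjusted p = 0.0177). Plau, the urokinase plasminogen activator, differed by 2.48 (2.01). Mmp2, a gelatinase, differed by -1.42 (-1.23) with overlap and fell by 1.81 in A (SE 0.17, adjusted p = 0.0166). Integrin and basement membrane genes had 6 of 24 above and 0 below (median 0.54, and 0.62 without MMP3 100K), with 9 above without MMP3 100K and 13 that rose in A. They included the matrix receptors Sdc4, with a difference of 1.88 (1.62), and Dag1, with 0.94 (0.85), and the proteoglycan Hspg2, with 1.02 (0.97).

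List medians of actin and YAP genes were above 0 between the sides and below 0 for MMP3 minus control in each pair of B. Of 28 SRF and actin cytoskeleton genes 7 lay wholly above and 0 below (median 0.57, and 0.41 without MMP3 100K), and 15 rose in A. MMP3 minus control at 25K, 50K, 100K and 250K in B gave medians of -0.41, -0.47, -0.47 and -0.60 for actin genes and -0.33, -0.42, -0.40 and -0.54 for YAP targets. Tpm1, a tropomyosin that stabilises actin filaments, read 0.85, 0.61, 0.48 and 0.04 against -0.20, -0.76, -1.13 and -2.44, a difference of 1.63 (1.19). For YAP and TEAD targets 5 of 30 lay above and 3 below (median 0.63, and 0.50 without MMP3 100K), beside 12.8% above and 17.8% below over all genes. The receptor tyrosine kinase Axl differed by 1.98 (1.93 without MMP3 100K), while Igfbp3, which binds insulin-like growth factors, differed by -2.41 (-2.63).

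Genes of inflammation outside the interferon list had a median above 0. Of 21 NF-kappaB targets and chemokines 9 lay wholly above and 3 below (median 0.73, and 0.60 without MMP3 100K), and 11 rose and 2 fell in A. Csf1, the macrophage growth factor, read 2.93, 2.44, 2.47 and 0.57 against -0.84, -0.57, -0.92 and -3.80, a difference of 3.63 (2.87). Nfkbie, an inhibitor of NF-kappaB, read -4.76 in MMP3 100K against -1.18 to -0.99 on the other low arrays, and its difference of 3.73 became 2.82 without it. The chemokine Cxcl16 differed by 1.98 with and without that array. Of macrophage markers 3 of 8 were tested and 1, Csf1r, lay wholly below. The list median ran from -0.02 to 0.0 on the high arrays and from 0.0 to 0.03 on the low arrays, and no endothelial marker passed the filter on low spread. The tested adipocyte marker, Fabp4, lay wholly below, 0 of 2 fibroblast markers lay on either side, and 2 of 4 epithelial markers, Epcam and Cdh1, wholly above. Since the values are centred, they do not show whether a marker was expressed.

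Mitotic genes, which build the spindle and separate chromosomes, were lower on the Ifit1-high arrays. Of 36 tested members 26 lay wholly below and 0 above, with a median of -0.96 (-0.86 and 28 without MMP3 100K, -0.62 without MMP3 250K). In A 16 fell and 0 rose (median -0.72). Ttk, a spindle checkpoint kinase, read -0.34, -0.29, -0.41 and -1.63 against 0.26, 0.55, 0.83 and 2.22. The 2 outermost arrays were MMP3 250K and MMP3 100K, and the other 6 lay between -0.41 and 0.83. Its difference was -1.63 in B (-1.21 without MMP3 100K) and -1.13 in A (SE 0.13, adjusted p = 0.0211). Spc25, a kinetochore protein, differed by -1.90 (-1.32), and Kif23, a kinesin of cytokinesis, by -2.03 (-1.13), with Kif23 not called in A (-0.60, SE 0.25, adjusted p = 0.181). Mki67, the proliferation antigen, read -0.18, -0.20, -0.20 and -0.86 against 0.28, 0.35, 0.61 and 0.02, and differed by -0.67 (-0.77).

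Mitotic promoters often carry the cell cycle homology region, read here as TTTGAA on both strands, through which DREAM and B-MYB complexes are known to act. The window of Mki67 is shown because this gene was followed whatever its values and holds the element before its start. It is chr7:135716380-135716629 on the minus strand of GRCm38.p6, with the element in capitals.
Mki67: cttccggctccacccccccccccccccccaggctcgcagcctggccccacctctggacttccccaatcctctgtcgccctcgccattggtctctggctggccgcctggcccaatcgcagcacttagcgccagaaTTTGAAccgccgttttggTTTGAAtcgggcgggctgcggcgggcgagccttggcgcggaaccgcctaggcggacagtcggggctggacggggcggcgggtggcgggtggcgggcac
It holds 2 matches, which begin 116 and 98 bases before the start. In the longer windows 23 of 31 mitotic genes had a match (74.2%), as did 50 of 209 genes lower by at least 1 on the Ifit1-high side (23.9%). The share was 6.87% of 466 genes higher by at least 1, 11.8% of tested genes outside the interferon list and 18.1% of all promoters. It was 22.4% of 67 interferon-list genes with high arrays above low arrays, so the element was not confined to the lower side. The lower genes include mitotic genes such as Ttk and Spc25. The CCAAT box, a separate element, was in 74.2% of mitotic genes, 51.7% of the lower genes, 34.3% of the higher genes, 39.1% of tested genes and 37.9% of all promoters.

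Of DNA replication genes 4 of 40 lay wholly below and 0 above, beside 17.8% and 12.8% of all genes, with a median of -0.29. Without MMP3 100K 16 lay below, with a median of -0.59, and the list was not tested against the mitotic genes. The median was -0.12 without control 25K, -0.19 without control 100K and 0.0 without MMP3 250K. Medians of MMP3 minus control were -0.52, -0.21, -1.15 and -1.43 at 25K, 50K, 100K and 250K, so both sides held an MMP3 dish with low values. Mcm5, a subunit of the replicative helicase, read 0.23, -0.06, -0.36 and -2.19 on the high arrays and 0.60, 0.27, -0.56 and -2.28 on the low arrays. The lowest array on each side was an MMP3 dish, and the sides overlapped. Pold1, the catalytic subunit of DNA polymerase delta, did not overlap and differed by -1.12 (-1.19) in B and -1.16 in A (SE 0.11, adjusted p = 0.0174). In A 12 replication genes fell and 0 rose. Genes linked to quiescence and FoxO showed no non-overlapping member of 27, and their medians of MMP3 minus control were 0.95, 0.28, 1.24 and 0.69.

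**Figure D3:**
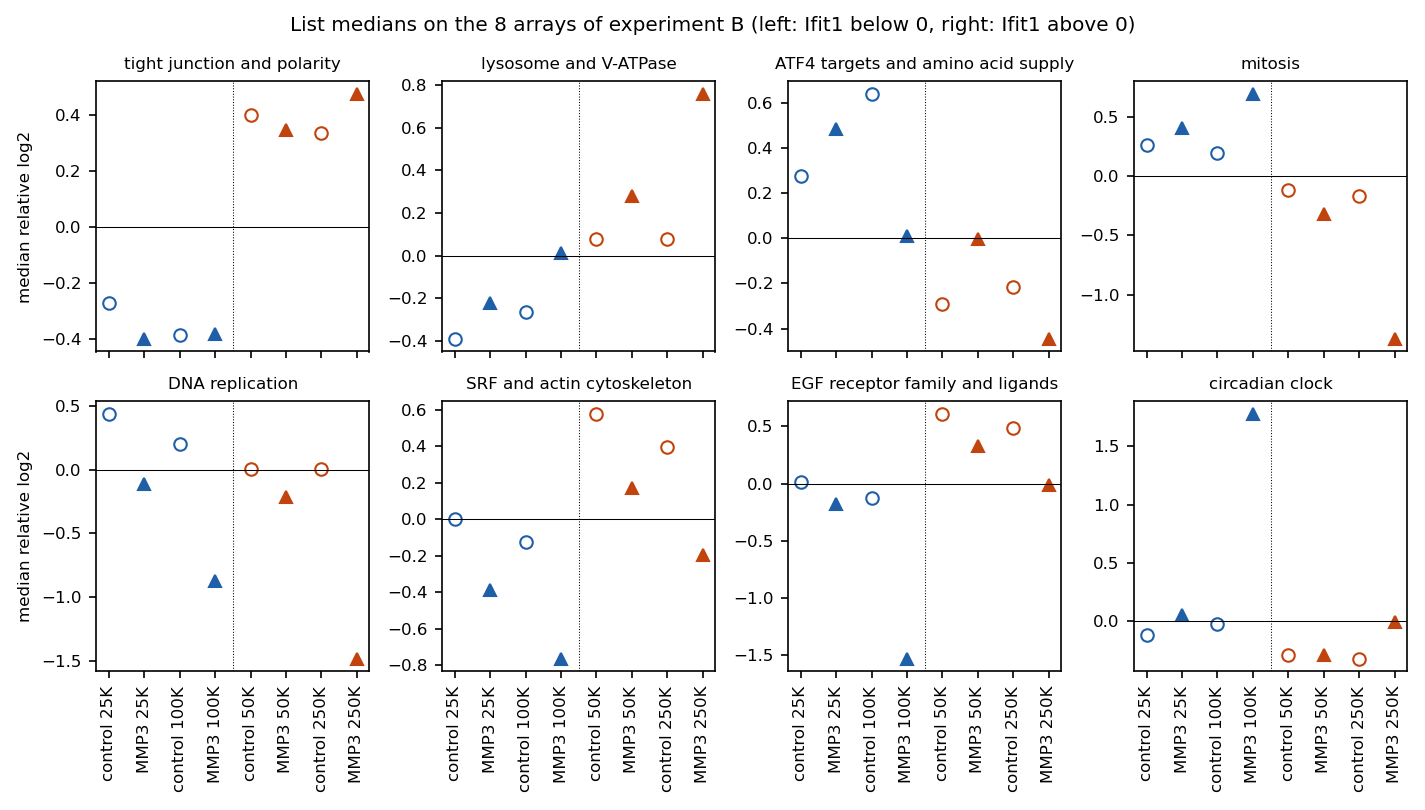
Median relative log2 expression of 8 gene lists (vertical axis) on the 8 arrays of experiment B, with Ifit1-low arrays in blue left of the dotted line and Ifit1-high arrays in orange right of it. Circles are control and triangles MMP3 dishes. Tight junction medians run from -0.40 to -0.27 on the left and from 0.33 to 0.48 on the right, while MMP3 100K stands alone at 1.78 for clock genes and at -1.53 for the EGF receptor family.

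Amino acid and stress genes under ATF4, the factor of the integrated stress response, were lower. Of 30 tested members 11 lay wholly below and 0 above (median -0.78, and -0.79 with 16 below and 2 above without MMP3 100K), and in A 17 fell and 2 rose (median -0.98). Aldh1l2, a mitochondrial folate enzyme, read -1.18, -1.10, -0.66 and -1.03 against 1.05, 1.61, 1.77 and 1.36. It differed by -2.44 (-2.47) in B and -3.05 in A (SE 0.14, adjusted p = 0.0122). Trib3, a pseudokinase that restrains ATF4, read -0.58, -0.30, 0.12 and -1.45 against 0.37, 1.10, 1.11 and 0.82, a difference of -1.40 (-1.41). The gap between its sides was narrow, from 0.12 in MMP3 50K to 0.37 in control 25K. Chaperone genes of the endoplasmic reticulum were not lower with them: 12 of 25 lay wholly above and 2 below, with a median of 0.39 (0.41 without MMP3 100K). Dnajc3, a co-chaperone that inhibits PERK, differed by 1.27 (1.24), whereas Herpud1, a factor of protein degradation there, differed by -0.82 (-0.69).

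Lysosomal genes were higher. Of 42 tested members 18 lay wholly above and 2 below (median 0.51), against 26 and 2 without MMP3 100K (median 0.55), and 22 rose and 0 fell in A (median 0.57). Ctsh, a lysosomal cysteine protease, read 0.63, 0.65, 0.70 and 0.79 on the high arrays and -1.75, -1.99, -1.59 and -0.63 on the low arrays. The high arrays were close to one another, and MMP3 100K was the low array closest to them. It differed by 2.19 in B (2.47 without MMP3 100K) and 2.54 in A (SE 0.064, adjusted p = 0.0122). Atp6v0e, a subunit of the proton pump that acidifies lysosomes, was among the 6 genes most like Ifit1 over the 8 arrays (r = 0.993, of 6710 genes with a range of at least 1). The others were Atg9b, the mitochondrial fission factor Fis1 (0.995), Ilvbl (0.993), Ndfip2 (0.992) and Mndal (0.99). Mndal belongs to a family of interferon-inducible genes but was not on the list. The fatty acid binding protein Fabp5 was the least like it (r = -0.974), at -0.89 to -0.35 on the high arrays and 0.52 to 0.71 on the low arrays.

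Other metabolic lists had medians nearer 0, and their counts stand beside 17.8% of all genes wholly below and 12.8% wholly above. Cholesterol and fatty acid synthesis had 7 of 29 members below and 0 above (median -0.26, and -0.34 without MMP3 100K), led by Hmgcs1, an early enzyme of the mevalonate pathway, with -1.95 (-1.66) in B and -1.35 in A (SE 0.12, adjusted p = 0.016). Of hypoxia and glycolysis genes 7 of 30 lay below and 1 above (median -0.12, -0.07 without MMP3 100K and -0.03 without control 250K). Oxidative phosphorylation had 6 of 33 below and 1 above (median -0.11, and -0.12 without MMP3 100K). Glutathione and NRF2 genes had 9 of 38 below and 5 above (median -0.11 with and without MMP3 100K, and -0.05 without control 100K). Within that list Gstm5 was higher by 2.31 (2.54) while Nqo1, a quinone reductase, differed by -1.70 (-1.36) and was not called in A (-1.72, SE 0.55, adjusted p = 0.111). In the iron list, ferroxidase Cp differed by 3.08 (2.70) and the iron exporter Slc40a1 by 2.25 (1.83), and both rose in A, by 3.23 (SE 0.33, adjusted p = 0.0186) and 2.22 (SE 0.10, adjusted p = 0.0122).

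Medians of 3 signalling lists were nearer 0 without MMP3 100K. Beside the counts given here, 12.8% of all genes lay wholly above and 17.8% wholly below. For the EGF receptor family and its ligands 5 of 26 lay above and 2 below, and the median of 0.87 became 0.43 without that array. Btc, the ligand betacellulin, kept a difference of 2.34 (2.14 without it). For the TGF-beta pathway 2 lay above and 2 below of 24 (median 0.23, and -0.01 without it), and for Wnt and Notch 6 and 5 of 34 (median 0.16, and -0.01). Within them the ligand Wnt9a differed by 2.35 (2.27) and the ligand Wnt5a by -1.30 (-1.48), and in A Wnt9a rose by 3.38 (SE 0.24, adjusted p = 0.0138) and Wnt5a fell by 2.01 (SE 0.17, adjusted p = 0.0158). Clock genes had 1 of 15 below, Cry1, and their median of -0.83 became -0.19 without MMP3 100K. In all 44 genes differed by at least 1 with all arrays and by less than 0.5 without MMP3 100K, 33 of them lower on the high side, and 10 were called in A. Cyclins, E2F factors and CDK inhibitors had 6 of 26 below and 1 above (median -0.13, but 0.05 without MMP3 250K and -0.03 without control 25K). Targets of p53 had 3 above and 2 below of 22, with a median of 0.03 (-0.01), and mammary lineage and milk genes 4 and 4 of 20, with a median of 0.26 (0.06). Kif14, a mitotic kinesin, read 6.04 in MMP3 100K and between -0.12 and 0.06 on the other 7 arrays of B. Rb1, the retinoblastoma gene, read 2.79 there and between -0.03 and 0.01 on the others, so its difference went from -0.72 to -0.02.

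**Figure D4:**
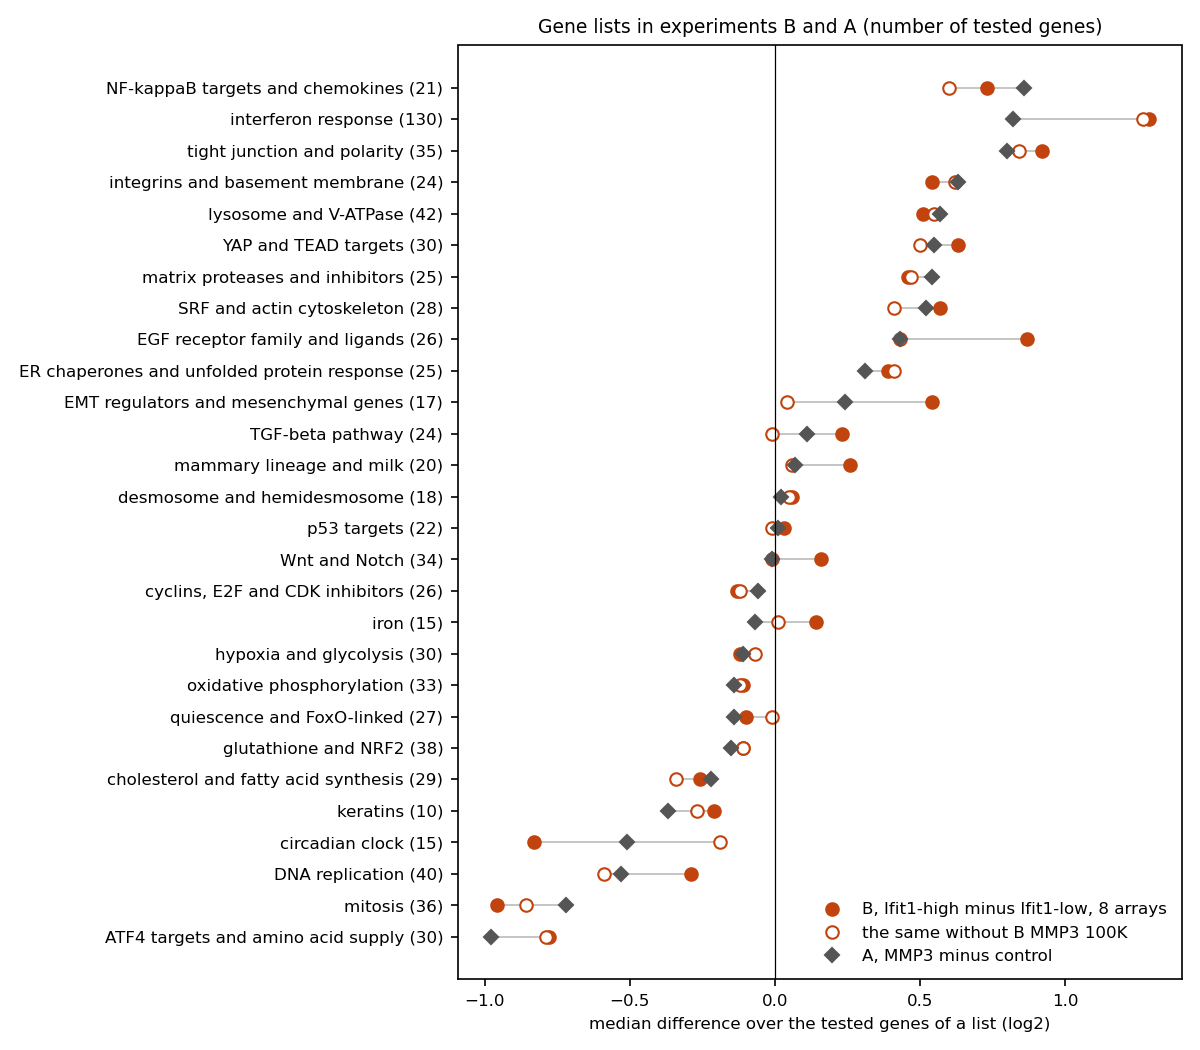
Median difference over the tested genes of each list (horizontal axis, log2), with the number of genes in brackets. Filled circles are Ifit1-high minus Ifit1-low in B, open circles the same without MMP3 100K, and diamonds MMP3 minus control in A. Mitosis and ATF4 lie at the low end in all 3 measures, and among the lists drawn the circadian, EGF receptor and mesenchymal lists shift most between filled and open circles.

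Some genes called in A had sides that overlapped in B. Krt79, a keratin, fell by 3.24 in A (SE 0.20, adjusted p = 0.013) and differed by -0.25 (-1.05) in B, where it read -2.90, -0.59, 0.44 and 1.28 on the high arrays and 0.99, 1.26, -0.44 and -2.59 on the low arrays. Its lowest arrays in B were control 50K and MMP3 100K, on opposite sides. Krt15, a basal keratin, fell by 4.52 in A (SE 0.28, adjusted p = 0.0132) and differed by -2.98 (-3.11) in B with overlap, because MMP3 250K read 1.99 beside -4.40, -3.54 and -1.45 on the other high arrays. The immediate early gene Egr3 fell by 2.64 in A (SE 0.48, adjusted p = 0.0405) and differed by -0.37 (-1.17) in B, over a range from -3.34 in control 50K to 1.76 in MMP3 250K.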

How the data were processed

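The authors deposited log values, taken here as log2. RMA, without a version, is named in the submitters' processing notes, and log2 is the scale it gives. The base itself is not given in the sources used here, and folds rest on it. The values show that each of 45101 probe sets was centred on its median over 14 arrays, so they hold no level. No scanner files were used here. Probe sets with 1 gene symbol in the platform annotation (34945) were used, with symbols updated through RefSeq tables where possible, and the probe set with the largest SD stood for a gene. Genes with an SD at or above the 40th percentile (0.049) were tested, 11812 in all. This filter uses all arrays, so genes that differ are likelier to pass. For 10 of 90 named genes with several probe sets, another had the opposite sign in B: Itgb6, Ctsb, Atf6, Ndufb8, Tgfa, Tgfbr2, Esr1, Btn1a1, Csf1r and Rac1. For others a probe set of the same sign differed far less than the one printed. Examples are Cgnl1 (0.02), Csf1 (0.20), Axl and Pkp2 (0.33), Epcam (0.36), Slc4a4 (0.72), Maf (-0.08), Wnt5a (-0.09) and Bcl11a (-0.19).

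Models were fitted with lmFit and eBayes of limma 3.58.1 (R 4.3.3), with Benjamini-Hochberg adjustment over the tested genes and a threshold of 0.05. The model for A had agent, centred log2 density and their product (2 residual degrees of freedom), and that for B agent and density as a factor (3). The scripts were tested on made-up arrays with known changes. The number of arrays limits the precision. The Ifit1 division is a description and was not tested.

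The division, gene lists and rules were chosen with earlier results of these data known. Genes were named if among the 12 largest differences of either sign, the 4 largest of a list, the 6 most or least like Ifit1, or on a short list followed whatever their values. Genes called in A whose sides overlapped in B, those that rest on MMP3 100K and the promoter elements were chosen after their values were seen. Promoters matched by symbol for 9457 of 11682 genes. Alternatives changed the model, filter, probe set rule, centring, size threshold and arrays used.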

Additional observations from a re-analysis of the deposited data

Results flagged for a closer look

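Within the 324 groups of 4 arrays examined in B, 51 had an array whose gap to the nearest of the others was unusually large for the range of the group. For independent normal values a gap that large comes up in about 1 in 20 groups. Here the groups share the same 8 arrays and most genes were named for their separated sides, so the 51 are not compared with chance. Of the 51, 22 fell on MMP3 100K and 19 on MMP3 250K. On the Ifit1-low side MMP3 100K was the lowest array for Nfkbie at -4.76, Csf1 at -3.80, Asap1 at -3.47, Tgfa at -1.96, Smad3 at -0.28, Dkk3 at -2.12, Cp at -2.38, Ireb2 at -0.54, Krt5 at -0.28 and Krt14 at -3.93. It was the highest for Cdkn2c at 1.14, Rb1 at 2.79, Bbc3 at 1.89, Msmo1 at 1.54, Bmp7 at 1.70, Bambi at 1.67 and Cry1 at 1.33. Among list medians it stood apart for mesenchymal genes at -0.54, the EGF receptor family at -1.53, Wnt and Notch at -0.37, the circadian clock at 1.78 and iron at -0.45.

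On the Ifit1-high side MMP3 250K was the highest array for Lipk at 3.57, Ppl at 1.07, Ctsb at 1.94 and Krt14 at 1.06. It was the lowest for Neil3 at -2.27, Pold1 at -1.80, Cdt1 at -1.92, Ttk at -1.63, Slc7a5 at -1.22, Stard4 at -0.99, Epcam at 0.43, Mki67 at -0.86 and Fabp5 at -0.89, and it also stood apart for Pdk1 at -0.41 and Uqcrc1 at -0.24. Its list medians stood apart for DNA replication at -1.49, mitosis at -1.37, mammary lineage at 0.39 and the circadian clock at 0.0.

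Control 25K stood apart from the other low arrays for Crct1 at -0.82, Timp2 at -0.87, Vldlr at 0.15, Wnt9a at -0.32, and the medians of tight junction genes at -0.27 and hypoxia genes at 0.07. Single cases were Ndrg1 in control 250K at -0.83, Bmp7 in control 50K at -1.39, Csf1r in MMP3 25K at 0.34 and Epcam in control 100K at -0.63.

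For 30 of 135 named genes, 1 of them without a test, MMP3 minus control had one sign in every pair of A and the other in every pair of B. No share over all tested genes is given. The difference between the experiments was not tested. In B it was negative for Ccn2 at -3.40, Thbs1 at -2.32, Chrnb1 at -1.71, Pkp2 at -1.57, Csf1 and Vim at -1.41, Timp3 at -1.38, Nfkbie at -1.32, Itgb6 at -1.19, Plau at -1.16, Amotl2 and Tpm1 at -0.89, Pdlim7 at -0.84, Tagln at -0.79, Plk2 at -0.72, Sdc4 at -0.62, Cnn2 at -0.60, Postn at -0.44, Cystm1 at -0.38, Dnajc3 at -0.33, Axl at -0.29 and Cdh1 at -0.28. In A the same 22 genes lay between 0.79 for Tagln and 4.09 for Ccn2. It was positive in B for Angptl6 at 1.55, Bcl11a at 1.27, Med12l at 1.20, Mmp2 at 1.11, Bbc3 at 0.53, Snai2 at 0.29, Ndufb5 at 0.27 and Herpud1 at 0.23, and in A these 8 lay between -3.57 for Bcl11a and -0.04 for Bbc3.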

How the results depend on the processing

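The 2960 calls in A were 1908 with density as a factor (matched pairs as a replicate block), 1712 with agent alone and 1271 without the filter. With 1 array of A left out they were 0 in every case (0 to 0), by a fit with 1 residual degree of freedom. When the product term was also dropped, a setting chosen after seeing the data, they were 447 without control 50K, 534 without control 100K, 2210 without control 250K, 969 without MMP3 50K, 1655 without MMP3 100K and 1350 without MMP3 250K. Of the genes that differed by at least 1 in B, the 843 became 445 with the mean of probe sets, 1989 at a size of 0.5 and 122 at a size of 2, and leaving out an array of B gave 676 to 1242. Those called in A in the same direction became 398 with the mean of probe sets and 351 without the filter, and ran from 0 to 884 over the arrays left out. Without the product term they were 220, 239 and 542 without control 50K, 100K and 250K of A, and 327, 433 and 451 without MMP3 50K, 100K and 250K. None of these settings gave a call in the opposite direction, and none gave a call for the labels in B. The correlation with A ran from 0.794 to 0.919 over the arrays left out. The cause of these shifts was not tested, beyond the fewer arrays.

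With the mean of probe sets the list medians in B became 1.06 for interferon genes, 0.63 for tight junctions, 0.16 for mesenchymal genes, 0.36 for integrins, 0.25 for chaperones, -0.02 for Wnt and Notch (reversed), 0.06 for mammary lineage, -0.03 for macrophage markers and 0.55 for epithelial markers. With a difference of medians they became 0.77 for tight junctions, -0.06 for hypoxia, -0.01 for Wnt and Notch (reversed), 0.04 for mammary lineage, -0.04 for macrophage markers and 0.22 for epithelial markers. Over the arrays left out they ran from 0.64 to 1.01 for tight junctions, 0.04 to 0.74 for mesenchymal genes, 0.43 to 0.84 for proteases, -0.18 to 0.05 for cyclins, -0.15 to -0.03 for hypoxia, -0.01 to 0.33 for TGF-beta, -0.01 to 0.20 for Wnt and Notch, 0.06 to 0.34 for mammary lineage, -0.14 to 0.04 for macrophage markers and 0.27 to 1.05 for epithelial markers. Lists within their spread also changed sign: keratins ran from -0.38 to 0.17, above 0 without control 25K, 50K or 100K, p53 targets from -0.12 to 0.07, and quiescence genes from -0.36 to 0.01. Glutathione genes ran from -0.14 to -0.05. Reversals beyond these were cyclins at 0.05 without MMP3 250K, and TGF-beta at -0.01, Wnt and Notch at -0.01 and macrophage markers at 0.04 without MMP3 100K.

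Among named genes in A, centring arrays on their medians left 132 on the same side of the threshold and 2 weaker. The mean of probe sets left 124 the same, 6 stronger and 4 weaker. Leaving out an array gave 678 weaker values, 120 the same and 6 reversed, which were Bbc3 at 0.06, 0.09 and 0.03 (range -0.19 to 0.09), Smad3 at -0.02 (range -0.02 to 0.18) and Fabp4 at 0.01 and 0.02 (range -0.07 to 0.02). A division by another Ifit1 probe set was not run, since only 1 is annotated. Signal over background is unknown, so genes near background cannot be told from genes that do not vary.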
